A study of Mus musculus with 6 samples.

Results

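The transcripts described here are those of 8 mouse genes for chemokine receptors and their close relatives: Ccr1, Ccr2, Ccr3, Ccr7, Cxcr4, Cx3cr1, Ackr3 and Ccrl2. They were taken by gene symbol from 6 tables of read counts per gene that list 25722 genes, and all 8 symbols were found once in each table. The RNA came from wild-type C57BL/6 bone marrow cells grown as bone marrow mesenchymal stem cells (BMSCs). BMSCs were obtained as the cells of tibia and femur marrow that adhered to plastic, were grown in 20% serum under 5% oxygen and 5% CO2 with 10 μM of a ROCK inhibitor, and were used before passage 3. Control BMSCs (3 libraries) received DMSO, the solvent, and the others (3 libraries) all-trans retinoic acid (RA), a vitamin A metabolite that acts through nuclear receptors. The sample labels give 1 μM RA for 48 h, while the methods of the study give 100 nM for 24 h, and which of these applies cannot be told apart here. The labels mention 2 biological replicates, yet each group has 3 libraries, and no source used here says that the libraries came from separate animals, so the p-values measure the spread between these libraries, which may be technical. The age of the mice was not given in the sources used here.

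Chemokines are small secreted proteins that guide moving cells, and the classical receptors among these genes are G protein-coupled receptors that signal through inhibitory G proteins. Cxcr4 binds CXCL12, the chemokine of bone marrow stroma that holds blood stem cells and leukocytes in the marrow. Cx3cr1 binds the membrane-bound chemokine CX3CL1 and is a known receptor of monocytes and macrophages. Ccr2 binds CCL2 and its relatives and brings monocytes out of the marrow, Ccr1 binds CCL3, CCL5, CCL6 and CCL9, Ccr3 is the eotaxin receptor of eosinophils, and Ccr7 guides dendritic cells and lymphocytes to lymph nodes. Ackr3 and Ccrl2 are atypical: Ackr3 takes up CXCL12 without classical G protein signalling, and Ccrl2 presents the chemoattractant chemerin, the product of Rarres2.

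The libraries held between 14737636 and 18511905 counts, and levels are given as CPM, the counts on a scale of equal library size after TMM scaling in edgeR. A count of 3 in a library equalled 0.162 to 0.204 CPM. Treatment was not the main difference between them. A principal component analysis of the 1000 genes that varied most put 57.2% of the variance on a first axis, which parted control 2, RA 1 and RA 2 (library set 1) from control 1, control 3 and RA 3 (library set 2). No label gives a batch or date that matches these sets, and since they were found from the data, differences between them are given as descriptions, without a test. All 16 macrophage markers examined had counts, with a summed level between 20562 and 23398 CPM in the 6 libraries, while 12 stromal markers summed to between 1262 and 4076 CPM. Of these 12, 10 passed the expression filter, such as Col1a1 (414.3 to 1648 CPM), Pdgfrb (60.3 to 139.9) and Eng (33.1 to 59.8), while the surface markers Thy1 and Nt5e did not. The cultures thus held stromal RNA beside a larger sum of macrophage RNA. In RNA of a whole culture, fewer cells of a type and less RNA per cell cannot be told apart. Cyp26b1, the enzyme that degrades RA, stood between 4.68 and 5.96 CPM in the controls and between 87.1 and 123.7 CPM after RA, so the treatment labels were borne out in all 6 libraries.

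Cx3cr1, Cxcr4, Ccr3 and Ccrl2 had the highest levels per transcript length, and they are the genes on which the results below turn. The 250 bases before their RefSeq transcription starts are shown, as build GRCm38.p6 gives them and 5′ to 3′ on the strand of the gene, because these genes moved in opposite directions between the library sets. Capitals mark matches, on either strand, to 1 or more of the motifs named after the sequences.
Cx3cr1, chr9:120068297-120068546, minus strand: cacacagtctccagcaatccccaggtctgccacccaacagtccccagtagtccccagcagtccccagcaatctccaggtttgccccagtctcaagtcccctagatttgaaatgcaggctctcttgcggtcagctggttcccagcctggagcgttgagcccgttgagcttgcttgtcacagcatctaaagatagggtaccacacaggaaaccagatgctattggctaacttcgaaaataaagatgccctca
Cxcr4, chr1:128592300-128592549, minus strand: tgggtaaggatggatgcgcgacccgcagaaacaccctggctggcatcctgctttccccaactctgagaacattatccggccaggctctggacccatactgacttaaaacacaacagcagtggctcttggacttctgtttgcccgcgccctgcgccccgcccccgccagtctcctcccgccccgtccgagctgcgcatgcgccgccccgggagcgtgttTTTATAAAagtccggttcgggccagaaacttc
Ccr3, chr9:124021721-124021970, plus strand: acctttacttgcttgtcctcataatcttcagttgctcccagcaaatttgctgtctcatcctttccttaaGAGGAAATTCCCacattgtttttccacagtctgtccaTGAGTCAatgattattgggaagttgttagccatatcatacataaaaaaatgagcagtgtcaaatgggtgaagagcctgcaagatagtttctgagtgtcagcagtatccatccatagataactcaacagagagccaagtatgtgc
Ccrl2, chr9:111057519-111057768, minus strand: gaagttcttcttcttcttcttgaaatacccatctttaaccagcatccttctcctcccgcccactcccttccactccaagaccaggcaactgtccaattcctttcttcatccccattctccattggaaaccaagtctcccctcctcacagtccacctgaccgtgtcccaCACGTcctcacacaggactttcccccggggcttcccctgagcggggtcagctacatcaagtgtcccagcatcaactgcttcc

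RefSeq windows were found for 7 of the 8 genes, all but Ccr7. The half-site of nuclear receptors AGGTCA had no match in the 7 windows, against 14% of the 32851 windows of all genes. Its direct repeat with 5 bases between the 2 copies, a form bound by RA receptors, had none either. That repeat was present in 0.00913% of all windows, so its absence from 7 windows says little. The Ccr3 window held the kappa B motif (GGGA, any 2 bases, TTCC), present in 1.21% of all windows, 179 bases before the start, and the AP-1 motif TGANTCA, present in 6.75%. The PU.1 core GAGGAA, present in 23.3% of all windows, was found before Ccr1 and before Ccr3, where it overlaps the kappa B match. The hypoxia response core ACGTG, present in 16.6%, was found before Ccrl2. The window of Cxcr4 held the TATA box letters TATAAA on both strands, overlapping each other, 32 and 30 bases before the start, and that of Ackr3 held them once, against 12.4% of all windows. The TATA box was added after the windows had been read. The windows of Cx3cr1 and Ccr2 held none of the 7 motifs. A match is a description of letters and not a shown binding site.

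Compared per length, as RPKM (CPM divided by the exon length in kilobases), Cx3cr1 was the highest of the 8 genes at 7.04 ± 3.16 (SD over all 6 libraries), followed by Cxcr4 at 6.46 ± 5.85. Cx3cr1 lay above Cxcr4 in 3 of 6 libraries and below it in the other 3, so the order of these neighbours was not fixed. Ccr3 came next with 3.58 ± 1.69 RPKM, below Cxcr4 in the same 3 of 6 libraries in which Cxcr4 exceeded Cx3cr1, and above Ccrl2 in all 6. Ccrl2 had 1.31 ± 0.787 RPKM and stood above Ccr1 in 4 of 6 libraries. The remaining genes were low, with Ccr1 at 0.469 ± 0.338, Ackr3 at 0.201 ± 0.0988 and Ccr2 at 0.115 ± 0.0569 RPKM. Ccr2, the receptor of inflammatory monocytes, was thus far below Cx3cr1 in these cultures. Ccr7 had 0, 2 and 0 counts in the controls and 0, 1 and 0 after RA, all under the limit of 3 counts, so it was not detectable at this depth and was not tested.

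**Figure D1:**
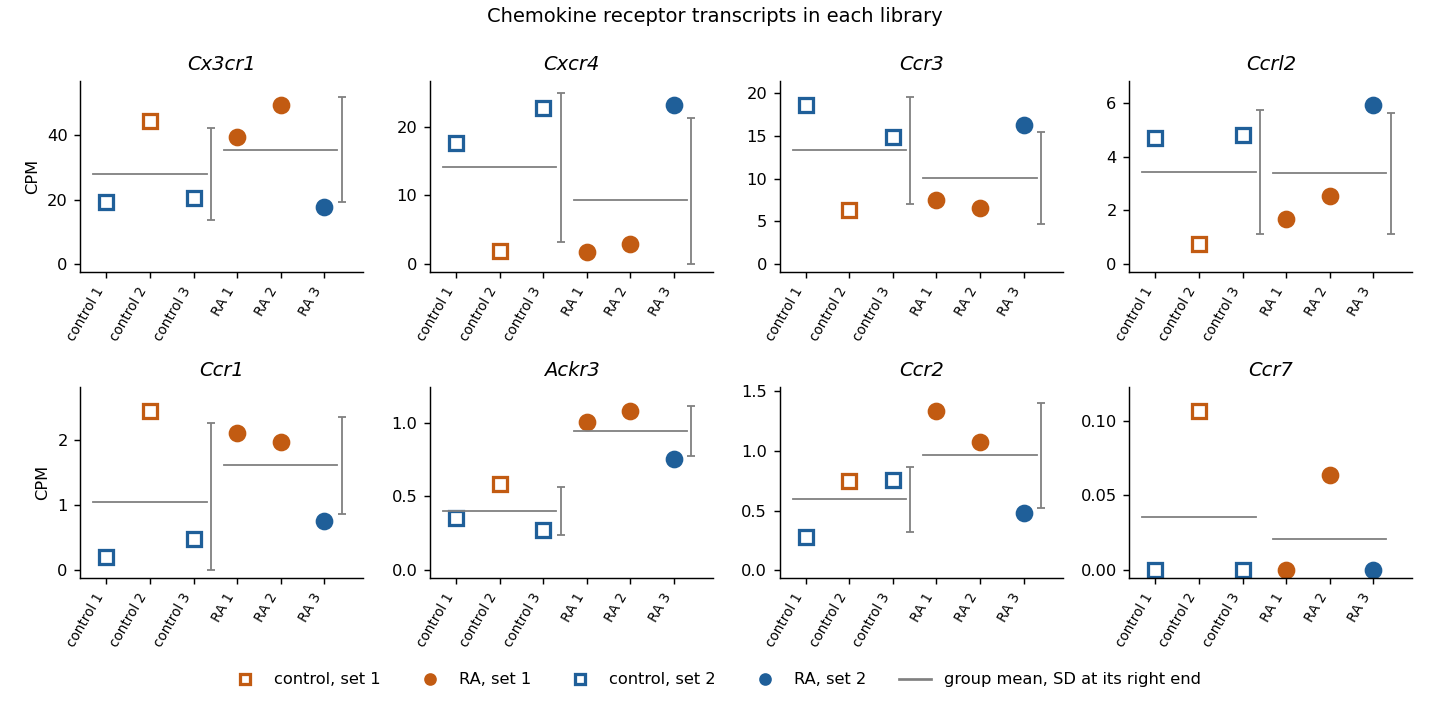
CPM of each of the 8 genes in the 3 control (open squares) and 3 RA (filled circles) libraries, orange for library set 1 and blue for set 2. Grey lines are group means and the bars at their right ends are SDs (n = 3, cut at 0, not drawn for Ccr7). Cxcr4, Ccr3 and Ccrl2 are higher in all blue points than in all orange ones and Cx3cr1 and Ccr1 lower, while Ackr3 is the gene with all RA points above all controls.

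Cxcr4 had 17.6, 1.97 and 22.7 CPM in control 1, 2 and 3, and 1.72, 2.92 and 23.2 CPM in RA 1, 2 and 3. Its levels formed a low and a high group of 3 libraries each, and both groups held controls and RA-treated libraries. The low group was library set 1 (mean 2.20 ± 0.630 CPM) and the high group set 2 (21.2 ± 3.11), a ratio of 9.60. The difference of mean log2 CPM, 3.21, was larger in size than that of 99.8% of the 13842 genes tested, for which the median size was 0.31. The counts behind it ran from 31 to 46 in set 1 and from 251 to 340 in set 2.

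Cx3cr1 took the opposite course. It had 19.1, 44.4 and 20.4 CPM in the controls and 39.5, 49.3 and 17.7 CPM after RA. The 3 libraries above 39 CPM were those of set 1 (44.4 ± 4.93) and the others those of set 2 (19.1 ± 1.34), so set 1 was 2.33-fold higher, with a log2 difference of -1.21 for set 2 minus set 1.

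Ccr3 sided with Cxcr4. Its levels were 18.6, 6.33 and 14.9 CPM in the controls and 7.45, 6.59 and 16.3 CPM after RA. Set 2 (16.6 ± 1.87) was 2.45-fold above set 1 (6.79 ± 0.585). Ccr3 is best known from eosinophils. The markers of eosinophils, basophils and mast cells, of which 5 of 8 were listed, summed to between 0.532 and 1.33 CPM in set 1 and between 1.36 and 2.06 CPM in set 2, so they were higher where Ccr3 was. Siglecf, the only one of them to pass the filter, was higher in every set 2 library (at most 1.72 CPM), and the eosinophil peroxidase gene Epx was at 0 in 5 of the 6 libraries. The part of these cells in the Ccr3 values was not tested.

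Ccrl2, the chemerin-presenting receptor, had 4.69, 0.745 and 4.81 CPM in the controls and 1.67, 2.54 and 5.94 CPM after RA. Set 2 (5.15 ± 0.685) was 3.12-fold above set 1 (1.65 ± 0.896). Ccr1, the receptor of CCL3 and CCL9, went the other way, with 0.210, 2.45 and 0.481 CPM in the controls and 2.11, 1.97 and 0.750 CPM after RA. Its set 1 libraries (2.17 ± 0.246) and set 2 libraries (0.481 ± 0.270) did not overlap, although the set 2 values rest on 3 to 11 counts.

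Of the 7 receptors tested, 3 were higher in every set 2 library than in every set 1 library and 2 were lower, together 5 of 7, while 24.4% and 23.4% of all genes tested were higher or lower in this way, 47.7% in all. For Ccr2 and Ackr3 the sets overlapped, with log2 differences of -0.94 and -0.84. The size of the log2 difference was at least that of 86% of all genes for each of the 7. Since these shares come from the same libraries that defined the sets, they describe the libraries and are no test.

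**Figure D2:**
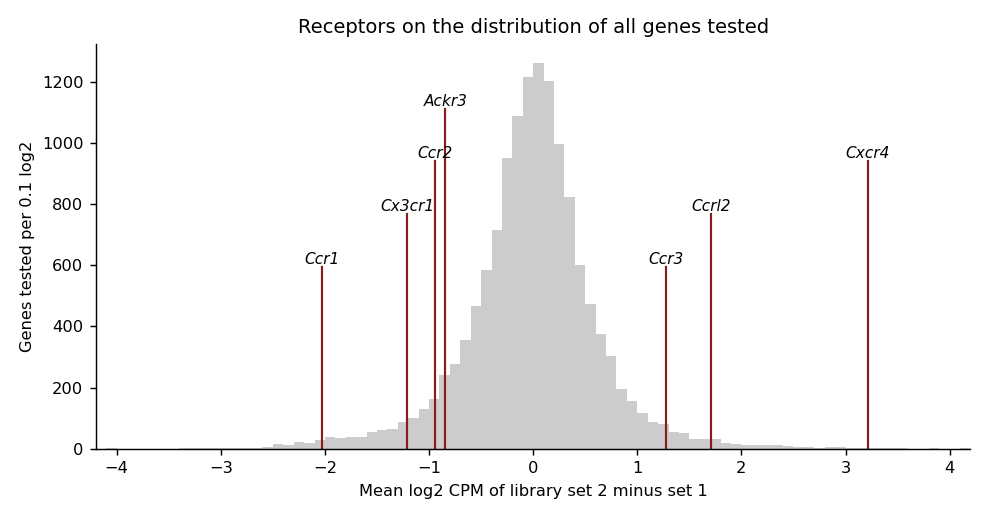
Histogram of the difference in mean log2 CPM between library set 2 and set 1 for the 13842 genes tested (x axis in log2 units, y axis in genes per bin), with red lines at the 7 tested receptors. Line heights only separate the names. Cxcr4 at 3.21 lies in the far right tail, and Ccr1 at -2.03 and Cx3cr1 at -1.21 lie on the left.

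The make-up of receptor RNA therefore differed between libraries. Cxcr4 made up 44.8%, 52.6% and 52.2% of the summed RPKM of the 8 genes in control 1, control 3 and RA 3, against 7.58%, 6.87% and 9.62% in control 2, RA 1 and RA 2. Cx3cr1 made up 19.6%, 18.9% and 16.0% in the former libraries and 68.6%, 63.1% and 65.3% in the latter. Cxcr4 exceeded Cx3cr1 by 2.29-, 2.78- and 3.27-fold per length in set 2, and Cx3cr1 exceeded Cxcr4 by 9.05-, 9.19- and 6.79-fold in set 1. The leading receptor thus changed with the library set within both treatments. The summed RPKM of the 8 genes ran from 13.9 to 24.6.

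**Figure D3:**
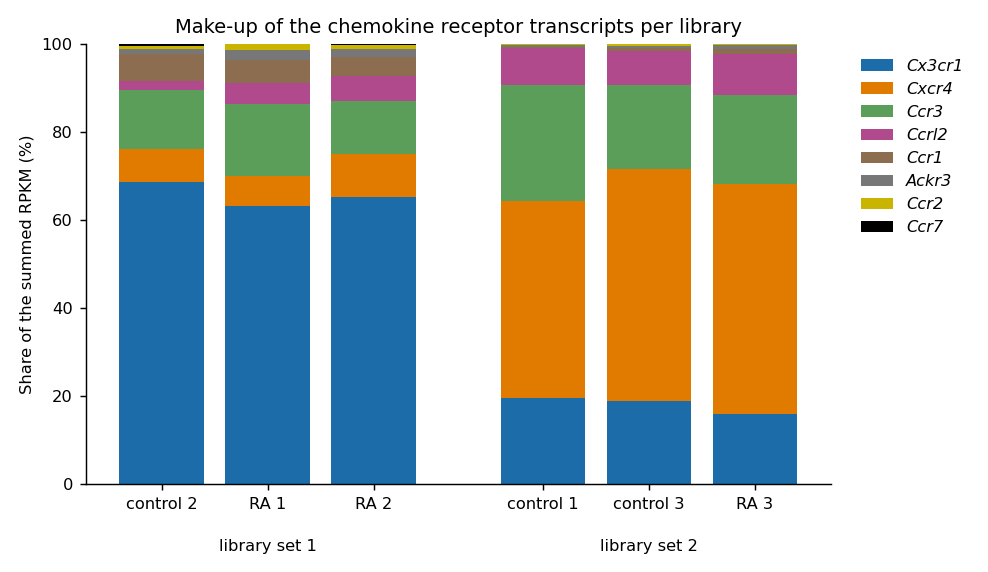
Share of the summed RPKM (percent, y axis) that each of the 8 genes took in each library (x axis), the libraries ordered by library set. Cx3cr1 fills between 63.1% and 68.6% of the bars of set 1, and Cxcr4 between 44.8% and 52.6% of those of set 2.

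The summed markers of most other cell types examined also differed between these sets. Of the 16 macrophage markers, 12 were higher in every set 2 library and 2 lower, where 24.4% and 23.4% of all genes tested were so, while their summed CPM overlapped, from 20562 to 21651 in set 1 and from 21046 to 23398 in set 2. The monocyte marker sum, between 411.5 and 751.3 CPM in set 1 and between 160 and 247 in set 2, was carried mainly by Hp, while F13a1 was higher in every set 2 library. Stromal markers summed to between 1771 and 4076 CPM in set 1 and between 1262 and 2167 in set 2. The osteoclast marker sum was lower in set 2, at 89.6 to 126.4 CPM against 183.9 to 358.6, mostly through Mmp9, but of the 4 markers tested 2 (Mmp9 and Ctsk) were lower in every set 2 library and 2 (Acp5 and Ocstamp) higher. Sums that were higher in set 2 without overlap, all at low levels, were those of T and NK cells (1.82 to 3.28 against 0.556 to 1.01 CPM), B cells (2.96 to 5.53 against 0.334 to 1.21), endothelium (16.2 to 17.3 against 7.02 to 11.7) and megakaryocytes and erythroid cells (7.63 to 8.89 against 2.41 to 2.83). Single genes carried most of these differences, Cd4 for T and NK cells, Cd79b for B cells, Pecam1 for endothelium and Epor for the last list. The defining T and B cell genes Cd3e, Cd8a, Cd79a, Ms4a1 and Pax5 had at most 2 counts in a library. Neutrophil and dendritic cell sums overlapped between the sets. The part of these markers in the receptor differences was not tested.

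RA treatment was compared with control over all 6 libraries, to ask whether receptor transcripts differed after RA in these cultures, which were labelled BMSCs and in which macrophage markers summed to more than stromal ones. With edgeR's quasi-likelihood test, 0 of the 7 receptors tested changed at a Benjamini-Hochberg adjusted p under 0.05 and at least 1.5-fold, where 0.0433% of all genes tested did so, and DESeq2 also called 0 of 7, against 0.983% of all genes. At an unadjusted edgeR p under 0.05 there was 1 receptor of 7, Ackr3, which was higher after RA, against 2.89% of all genes tested that were higher at this threshold. The adjusted p ran from 0.795 to 0.997. The median log2 fold change of the 7 receptors was 0.34, and that of all genes tested was -0.02.

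Ackr3, the scavenging receptor of CXCL12, had 0.350, 0.585 and 0.275 CPM in the controls and 1.00, 1.08 and 0.750 CPM after RA. All 3 RA libraries lay above all 3 controls, which was so for 5.71% of all genes tested. The group means were 0.403 ± 0.162 and 0.943 ± 0.171 CPM (SD, n = 3), and the log2 fold change was 1.18 (standard error 0.40, 95% interval 0.24 to 2.13). Its p in edgeR's quasi-likelihood test was 0.0211 before and 0.795 after adjustment over all genes tested. An exact two-sided permutation test of the log2 CPM gave p = 0.1, the smallest that 3 against 3 libraries can give. The gene was near the limit of detection, with 5, 11 and 4 counts in the controls and 18, 17 and 11 after RA. The summed counts were 20 (95% exact Poisson interval 12.2 to 30.9) and 46 (33.7 to 61.4), intervals that cover counting error only, since PCR copies of a molecule are counted apart. The difference was 0.71 within library set 1 and 1.01 within set 2 on the log2 CPM scale. Control 2 is the only control of set 1, and RA 3 the only RA library of set 2.

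The other 6 receptors had intervals that held 0, and their RA and control values overlapped. For Cxcr4 the group means were 14.1 ± 10.8 CPM in the controls and 9.28 ± 12.1 after RA (log2 fold change -0.60, 95% interval -3.34 to 2.13, edgeR adjusted p = 0.901). Each group held libraries of both sets. For Cx3cr1 the means were 27.9 ± 14.2 and 35.5 ± 16.2 CPM (log2 fold change 0.34, 95% interval -0.77 to 1.45, edgeR adjusted p = 0.855). Ccr3, with 13.3 ± 6.31 CPM in the controls and 10.1 ± 5.38 after RA, had a log2 fold change of -0.39 (95% interval -1.58 to 0.79, edgeR adjusted p = 0.845).

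Ccr1, Ccr2 and Ccrl2 rested on fewer counts than these. Their standard errors (0.83, 0.53 and 0.745) were nevertheless below that of Cxcr4 (1.145), and that of Ackr3 (0.395) was the smallest of the tested receptors. Ccr1 had a log2 fold change of 0.58 (95% interval -1.41 to 2.57, edgeR adjusted p = 0.864). Ccr2, with 0.280, 0.745 and 0.756 CPM in the controls and 1.33, 1.08 and 0.478 after RA, had one of 0.69 (95% interval -0.57 to 1.95, edgeR adjusted p = 0.803). Its counts ran from 4 to 24 per library. The group means of Ccrl2 were 3.42 ± 2.32 and 3.38 ± 2.26 CPM, with a log2 fold change of -0.01 and an interval from -1.79 to 1.77 (edgeR adjusted p = 0.997).

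With the library set as a covariate in the same edgeR model, the intervals of the higher receptors narrowed. The log2 fold change of Cxcr4 became 0.21 (95% interval -0.29 to 0.71, adjusted p = 0.638), and that of Cx3cr1 became -0.07 (-0.37 to 0.22, adjusted p = 0.783). For Ccr3 it was 0.05 (-0.31 to 0.41, adjusted p = 0.893). These intervals are conditional on a split that was taken from the expression data of the same libraries, in which these genes differ strongly, and they set no limit on the RA effect without it. In this fit the upper bounds of Cxcr4, Cx3cr1 and Ccr3 lay below a doubling and their lower bounds above a halving, and for all 3 the direction of the value turned against the fit without the covariate. Within the sets the RA minus control differences of Cxcr4 were 0.18 and 0.21. Each rests on a single library on its smaller side, control 2 in set 1 and RA 3 in set 2.

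In the same fit 0 of 7 receptors passed the adjusted threshold, against 1.54% of all genes tested. At an unadjusted p under 0.05 there were 2, Ackr3 and Ccrl2, both with higher values after RA, where 6.7% of all genes tested were higher at that threshold. Ackr3 had a log2 fold change of 1.00 (95% interval 0.15 to 1.85, adjusted p = 0.277). Ccrl2 had one of 0.75 ± 0.32 (standard error, adjusted p = 0.327). Its RA minus control difference was 1.33 within set 1, where the control had 14 counts and the RA libraries 30 and 40, and 0.31 within set 2, where the controls had 67 and 70 and the RA library 87. Both atypical receptors thus had positive values within each set, neither of them past the adjusted threshold. Ccr1 and Ccr2 had values of 0.16 and 0.38 in this fit (adjusted p = 0.861 and 0.697).

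**Figure D4:**
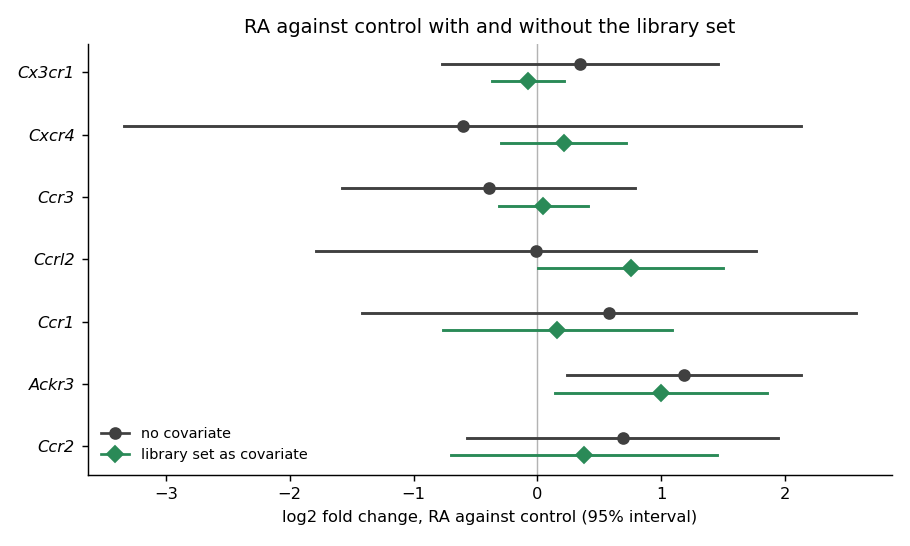
Log2 fold change of RA against control (x axis) for the 7 tested receptors (rows), from the fit without a covariate and from that with the library set. Bars are 95% intervals from edgeR's quasi-likelihood fits. The interval of Cxcr4 shrinks from -3.34 to 2.13 without the covariate to -0.29 to 0.71 with it, and Ackr3 stands above 0 in both fits.

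Set against the mean log2 CPM of the 16 macrophage markers in the same library, 0 of the 7 receptors had all RA libraries on one side of all controls. Ackr3, which separated in CPM, no longer did so, since RA 3 stood at -9.52 and control 2 at -9.28 on this log2 scale. The RA minus control difference on this scale was 1.09 for Ackr3, 1.04 for Ccr1, 0.64 for Ccr2, 0.38 for Cx3cr1 and 0.21 for Ccrl2, and it was -0.33 for Ccr3 and -0.85 for Cxcr4. The exact two-sided permutation p was between 0.2 and 1 for these 7. The macrophage mean itself differed by -0.05 between RA and control (exact permutation p = 0.9).

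Beyond these genes, 13 of 16 other chemokine receptor genes looked up were listed, and 4 passed the filter. By edgeR 0 of the 4 changed past the adjusted threshold, against 0.0433% of all genes tested, and DESeq2 called 0. At an unadjusted edgeR p under 0.05 there was 1, lower after RA, against 2.36% of all genes tested. That gene was Ackr4, an atypical receptor that clears CCL19 and CCL21. It had 6.58, 5.43 and 6.60 CPM in the controls and 3.06, 3.93 and 3.41 after RA, and every RA library lay below every control, as in 6.87% of all genes tested (log2 fold change -0.84 with a standard error of 0.20, edgeR adjusted p = 0.465). The atypical Ackr3 and Ackr4 thus stood on opposite sides of 0. Cxcr3, like Cxcr4, was higher in every set 2 library, with 4.62, 0.851 and 4.68 CPM in the controls and 1.17, 1.46 and 4.84 after RA.

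The ligands of the receptors were examined as a list of 20 genes, of which 19 were listed and 11 passed the filter. By edgeR 0 of the 11 changed past the adjusted threshold, against 0.0433% of all genes tested. At an unadjusted p under 0.05, 4 were higher after RA (Ccl3, Ccl6, Ccl9 and Cxcl12) and 0 lower, where 2.89% and 2.36% of all genes tested were so, and DESeq2 called 1, Ccl6, against 0.983% of all genes. In the fit with the library set 4 were higher and 4 lower at this threshold, against 6.7% and 8.44% of all genes tested. The median log2 fold change of the 11 was 0.22. In 8 of the 11 every set 2 library lay below every set 1 library, as in 23.4% of all genes tested.

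Cxcl12, the ligand of Cxcr4 and Ackr3, had 368.1, 443.3 and 413 CPM in the controls and 577.9, 513.3 and 461.8 after RA. All RA libraries lay above all controls (408.1 ± 37.8 against 517.7 ± 58.2 CPM, log2 fold change 0.34, edgeR adjusted p = 0.795). Cx3cl1, the ligand of Cx3cr1, had 7.70, 29.0 and 9.49 CPM in the controls and 12.3, 10.5 and 5.73 after RA, with overlapping groups (log2 fold change -0.69, edgeR adjusted p = 0.803). With the library set as a covariate it stood at -1.01 (edgeR adjusted p = 0.0578). The 2 ligands of the highest receptors therefore had values on opposite sides of 0, both short of the threshold.

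Mif, a cytokine that also binds Cxcr4, had 68.5, 126.7 and 60.4 CPM in the controls and 119.6, 115.8 and 55.6 after RA (log2 fold change 0.19, edgeR adjusted p = 0.908). Adm, the adrenomedullin gene, whose peptide is taken up by Ackr3, stood between 17.0 and 22.4 CPM in the controls and between 17.9 and 26.2 after RA (log2 fold change 0.22, edgeR adjusted p = 0.807). Both overlapped between the groups.

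Among the ligands of Ccr1, Ccl6 had 56.7, 22.0 and 67.4 CPM in the controls and 150, 145.5 and 205.6 after RA, so the groups did not overlap (log2 fold change 1.78 with a standard error of 0.41, edgeR adjusted p = 0.414). It was called by DESeq2 with a log2 fold change of 1.79 (adjusted p = 0.00287) and, in the edgeR fit that had the library set as a covariate, with one of 2.22 (adjusted p = 0.00524). Ccl9 had 158.6, 247 and 150.7 CPM in the controls and 376.4, 349.2 and 231 after RA, where the groups overlapped (log2 fold change 0.78, edgeR adjusted p = 0.795). With the covariate its value was 0.57 (edgeR adjusted p = 0.0149), which is under 1.5-fold and so no call. Ccl3 had 88.7, 91.4 and 73.2 CPM in the controls and 114.1, 130.5 and 92.5 after RA, all above the controls (log2 fold change 0.41, edgeR adjusted p = 0.795). Ccl5 lay on the other side of 0, with 1.47, 23.9 and 2.89 CPM in the controls and 10.8, 6.34 and 2.18 after RA (log2 fold change -0.56, edgeR adjusted p = 0.899). With the covariate its value was -0.98 (edgeR adjusted p = 0.297).

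The ligands of Ccr2 differed widely between libraries of 1 group. Ccl2 had 12.5, 157.1 and 12.1 CPM in the controls and 93.5, 51.1 and 7.23 after RA, and Ccl7 had 12.7, 136.1 and 12.9 CPM and 74.2, 54.0 and 3.68 CPM in the same order. Both were higher in every set 1 library than in every set 2 library, the direction of Ccr1. In the fit with that covariate Ccl7 was called lower after RA (log2 fold change -1.33, edgeR adjusted p = 0.0181), while Ccl2 at -0.98 was not (edgeR adjusted p = 0.105). Ccl12, a further ligand of Ccr2, had 1.40, 4.09 and 1.03 CPM in the controls and 5.34, 5.52 and 1.09 after RA, and again the 3 highest libraries were those of set 1. The chemerin gene Rarres2, the eotaxin genes Ccl11 and Ccl24 and the Ccr7 ligand genes Ccl19 and Ccl21a did not pass the filter, so they have no test.

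**Figure D5:**
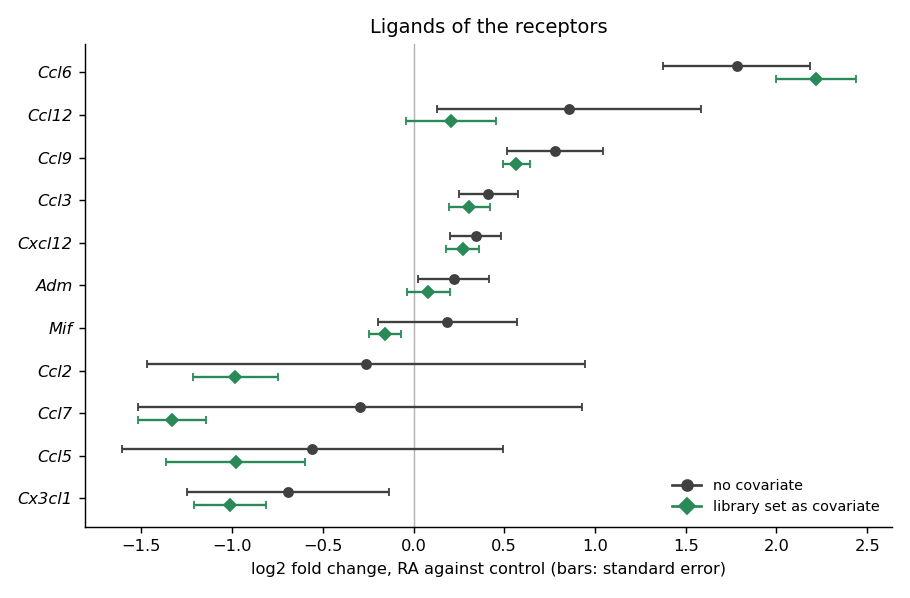
Log2 fold change of RA against control (x axis) for the ligand genes that passed the filter (rows), from the fit without a covariate and from that with the library set. Bars are 1 standard error to each side, from edgeR's quasi-likelihood fits. Ccl6 lies furthest to the right in both fits, at 1.78 and 2.22, and Ccl7 at -1.33 furthest to the left with the covariate.

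Genes that carry receptor signals inside the cell, such as inhibitory G proteins, arrestins, receptor kinases and regulators of G protein signalling, formed a list of 26 that also holds Cmklr1, the signalling receptor of chemerin. All 26 passed the filter. By edgeR 0 of the 26 changed past the adjusted threshold, against 0.0433% of all genes tested, and DESeq2 called 0. At an unadjusted edgeR p under 0.05 there were 0 as well, against 2.89% of all genes tested that were higher and 2.36% that were lower. Their median log2 fold change was -0.06, close to the -0.02 of all genes tested. The highest value was that of Rgs16, which shortens G protein signals, at 1.13 (edgeR adjusted p = 0.795), and the lowest that of Pik3r5, a subunit of the kinase PI3K gamma, at -0.25. With the library set as a covariate 2 of 26 had an unadjusted edgeR p under 0.05, both higher after RA, a share near the 6.7% of all genes tested. They were Rgs16 at 0.77 (adjusted p = 0.0606) and Rgs2 at 0.56 (adjusted p = 0.26).

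The genes whose log2 CPM followed each receptor most closely over the 6 libraries were taken by Pearson's r, as a description of 6 points that fall into the 2 library sets. Specc1l followed Cxcr4 (r = 0.998), Tnip3 and Snu13 followed Cx3cr1 (r = 1.00 and 0.997), Jak3 and Ppp6r2 followed Ccr3 (0.999 and 0.998), and Miip and Mtr followed Ccrl2 (0.999 and 0.998). Among the low receptors, Ddr2 and Spats2 followed Ccr1 (both 0.995), Eny2 and Ppp2r3c followed Ccr2 (0.991 and 0.984), and Retreg1 and Usp46 followed Ackr3 (0.994 for the former). An r over 0.99 was reached by 62 genes for Cxcr4, 45 for Ccr3, 38 for Cx3cr1 and 30 for Ccrl2, but by 8 for Ccr1, 2 for Ackr3 and 1 for Ccr2. The 2 receptors whose values overlapped between the sets, Ackr3 and Ccr2, had the fewest such genes. Both have low counts, and the sets are the main axis of the same libraries, so this is no separate result.

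In the GRCm38 annotation Ccr1 (chr9:123962124-123968692), Ccr3 (chr9:124021972-124031689) and Ccr2 (chr9:124101950-124113557) are neighbours on chromosome 9, which also holds Cx3cr1 (chr9:119901616-120069879) and Ccrl2 (chr9:111054486-111057519). Cxcr4 (chr1:128588199-128592293) and Ackr3 (chr1:90203980-90216751) are on chromosome 1, and Ccr7 (chr11:99144196-99155077) is on chromosome 11. Among these neighbours, Ccr1 was higher in every set 1 library and Ccr3 in every set 2 library. Ccr2 overlapped between the sets, with a log2 difference of -0.94 in the direction of Ccr1 (Pearson's r with Ccr1 0.81). The span of Cx3cr1 overlaps 9 other genes, but its exons share bases with 1 alone, the antisense gene Gm33858, over 78 bases. Ccr2 shares 1.91% of its stretches of 50 bases with other genes, Cx3cr1 shares 0.269%, and the other 6 genes share none, and the counts of Ccr2 are uncertain to that degree, as the counting is not described.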

How the data were processed

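RNA-seq of 3 control and 3 RA-treated BMSC libraries was taken from the read counts per gene that the authors deposited, raw and not normalized, 1 table per library. The submitters' processing notes name Bowtie2 2.2.3 and mm10, while the counting program and annotation are not given in the sources used here. All 25722 identifiers were found in GENCODE M21 (GRCm38), and 24 date-like names were replaced by its symbols. Exon lengths for RPKM came from it and promoter sequences from RefSeq. The members and gene lists were chosen with earlier results of these data known.

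In R 4.3.3, edgeR 4.0.16 (TMM scaling, filterByExpr, 13842 genes kept) compared RA with control by the quasi-likelihood test without covariates. A call needed an adjusted p (Benjamini-Hochberg) under 0.05 and a change of 1.5-fold or more. Log2 CPM used a prior count of 2. The text names all 8 receptors; from the receptor, ligand and signalling lists the genes called, those at an unadjusted p under 0.05 or an adjusted p under 0.05 with the covariate, the ligands of a receptor and the highest and lowest fold change; and for each receptor the 2 genes of highest r among those with a mean log2 CPM of at least 3. Cxcr3 and Rgs2 were named after their values were seen, and results on some items are not reported here. The test was tried on simulated data. Alternatives were DESeq2 1.42.0, the likelihood ratio test, other scalings and filters, the replicate block, the library set as a covariate and each library left out. The fit with the covariate and a library left out was chosen after seeing the data.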

Additional observations from a re-analysis of the deposited data

How the results depend on the processing

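No receptor passed the adjusted threshold under any alternative tried, and 1 (Ackr3) passed it with an unadjusted p. Over all genes, 6 were called, against 136 by DESeq2, 134 by the likelihood ratio test, 20 without a filter, 213 with the library set as a covariate, 491 with an unadjusted p and 0 to 6 with a library left out. Of the ligands, 1 was called by DESeq2, 1 by the likelihood ratio test, 2 with the covariate and 2 with an unadjusted p, and 1 of the other receptors with an unadjusted p. The covariate turned the log2 fold changes of Ccr3 (0.049), Cxcr4 (0.21), Cx3cr1 (-0.074) and Ccrl2 (0.75). Ccrl2, at -0.01, also turned with library size alone (0.032), upper quartile scaling (0.014), a minimum of 10 counts (0.0052) and the replicate block (0.13).

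With a library left out, values ran from 0.12 to 2.21 for Ccr1, 0.37 to 1.00 for Ccr2, -0.92 to -0.07 for Ccr3, -2.60 to -0.07 for Cxcr4, 0.03 to 0.86 for Cx3cr1, 0.98 to 1.59 for Ackr3 and -0.69 to 0.34 for Ccrl2. With the covariate as well they ran from -0.26 to 1.11 for Ccr1, -0.11 to 0.71 for Ccr2, -0.030 to 0.15 for Ccr3, 0.12 to 0.33 for Cxcr4, -0.16 to 0.0077 for Cx3cr1, 0.82 to 1.25 for Ackr3 and 0.33 to 1.48 for Ccrl2. Relative to the macrophage markers, values with a library left out moved by under 1.5 times for Ackr3 and otherwise ran from 0.35 to 2.05 for Ccr1, 0.21 to 1.14 for Ccr2, -0.61 to -0.07 for Ccr3, -1.82 to -0.20 for Cxcr4, 0.04 to 0.94 for Cx3cr1 and -0.45 to 0.56 for Ccrl2. Where 1 library of a group was left in a set, it was assumed to vary like the others.

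Same-numbered libraries deviated together with correlations of -0.51, 0.343 and 0.572, so the numbers were not taken as pairs. The replicate block gave 4 called genes and no called receptor, with Ackr3 at 1.23 (edgeR adjusted p = 0.714). At 4 to 24 counts, Ccr2 and Ackr3 are limited by depth.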

Other observations

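Marker genes of further cell types were summed in each library. Dendritic cell markers summed to between 119.5 and 153.5 CPM in the controls and between 64.2 and 87.6 after RA, a sum carried by Fscn1 (139.7, 121.9 and 104.2 CPM against 78.3, 55.2 and 73.4). The other markers of this list that passed the filter, Itgax and Batf3, overlapped between the groups, and Flt3, Zbtb46 and Clec9a did not pass it. Osteoclast markers ranged from 89.6 to 183.9 CPM in the controls and from 126.4 to 358.6 after RA, mostly through Mmp9 (log2 fold change 1.40), while Acp5 (-0.39), Ctsk (-0.36) and Ocstamp (-0.99) had values below 0. None of these 4 passed the adjusted threshold of edgeR without a covariate, and Mmp9 did with the library set in the fit (0.88, adjusted p = 0.0167). Neutrophil markers summed to between 3.02 and 4.41 CPM over all 6 libraries.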
